A study of Mus musculus with 18 samples.

Results

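The subject is the step from PreCFU-E to CFU-E, successive erythroid progenitors of mouse bone marrow, in mice whose Scf gene was floxed and then deleted in stromal cells that carry the leptin receptor. It is held by 6 of the 18 libraries of the series, the PreCFU-E and the CFU-E library of each of 3 mice, chosen by their labelled genotype and cell type and not by any measured value. All 21967 genes of the count table were read, and 10732 of them passed a filter on low counts and were tested. The 3 genotypes of the series are Scf FL/FL, with floxed copies alone, Scf KO/FL, in which a null allele faces a floxed one, and Scf KO/FL;Lepr-Cre, which adds Cre driven from the leptin receptor locus. The last are called Lepr-Cre mice here. They share the null allele with KO/FL mice and the floxed copy with both other genotypes, so a contrast with FL/FL joins the null allele to the Cre while a contrast with KO/FL does not. Each genotype has 3 mice, named A, B and C, and B is the female in each. The age of the mice is not given in the labels. Cre acts only where the leptin receptor locus is or was active, so other cells of a Lepr-Cre mouse keep the floxed copy, and SCF itself was not measured in the marrow.

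Stem cell factor, the product of Scf (gene symbol Kitl), binds the receptor tyrosine kinase KIT on progenitors and signals through SRC kinases, PI3 kinase and the RAS to ERK cascade. PreCFU-E are committed erythroid progenitors that still carry CD150, and CFU-E follow them, lose CD150 and come to depend on erythropoietin. Between these stages the genes of haem synthesis, iron uptake and the red cell membrane are turned up while genes of stem cells and platelets are turned down, before haemoglobin is made in quantity.

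Cells were enriched on c-Kit and sorted with antibodies to lineage antigens, CD105, CD150, CD41, CD16/32 and Sca1, and the labels do not say which levels define each gate. Levels are given as CPM, counts scaled to a common library total, and a step is the log2 fold change from PreCFU-E to CFU-E within mice. A gene is called where its Benjamini-Hochberg adjusted p, over the 10732 tested genes, is under 0.05 in edgeR's quasi-likelihood test with the mouse as a block. In Lepr-Cre mice the PreCFU-E libraries held 7281009, 9325063 and 7788825 counts in mice A, B and C, and the CFU-E libraries 8728954, 6804445 and 6915083. The CFU-E library of mouse B stood apart from the others. It had 10782 detected genes, the fewest of the 18 libraries, and lay at -42.4 on the second principal component (11.4% of the variance) against -19.6 and -17.4 for mice A and C. Kitl (ENSMUSG00000019966.18, chr10:100015630-100100416, plus strand, GRCm38) had 0 counts in all 6 Lepr-Cre libraries and at most 1 in any other library. Progenitors are not the source of SCF that the Cre removes, so this checks nothing about the deletion. Of 10 erythroid marker genes, all were detected, with a summed level of 4170 to 4550 CPM in PreCFU-E and 4420 to 4510 CPM in CFU-E of Lepr-Cre mice. As these are bulk samples, fewer cells of a type and less RNA per cell cannot be told apart.

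At the step in Lepr-Cre mice more genes rose than fell in haem synthesis (12 and 0), iron handling (6 and 0), the red cell membrane (16 and 3) and S phase (24 and 0). More fell than rose among stem cell genes (7 and 1), platelet genes (5 and 1), KIT signalling genes (12 and 3) and cytokine receptors (8 and 1). These lists hold genes of antigens used to enrich or sort the cells. They are Slamf1 and Eng (stem cell), Itga2b (platelet) and Kit (KIT signalling and cytokine receptors). All were called, so these counts in part describe the gates. edgeR called 1322 genes, 12.3% of those tested, of which 585 (5.45%) were higher and 737 (6.87%) lower in CFU-E. The falls were the larger changes: 301 genes fell and 98 rose more than 2-fold, and 119 fell and 22 rose more than 4-fold. Of the 1322 genes, 1298 moved in the same direction in all 3 mice, an agreement that the calls themselves favour. In 1108 of them the 3 CFU-E libraries all lay above or all below the 3 PreCFU-E libraries, a separation met by 22.3% of all tested genes. Without the block edgeR called 778 genes, and without mouse B or C, with the block, it called 881 and 799. limma on log2(RPKM + 1) called 781.

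The largest rises, among called genes with separated groups and a mean of at least 5 CPM, included several red cell genes. Slc4a1 (ENSMUSG00000006574.15, chr11:102348824-102366203, minus strand), which codes for the anion exchanger band 3 of the red cell membrane, was read at 1.23, 1.23 and 1.67 CPM in PreCFU-E and 11.6, 16.1 and 12.6 CPM in CFU-E. All 3 CFU-E libraries stood several-fold above the highest PreCFU-E library, for a log2 step of 3.27 (SE 0.54, adjusted p = 1.15e-05 by edgeR, n = 3 mice). Epb42, protein 4.2 that ties band 3 to the skeleton, was read at 10.3, 9.42 and 14.4 CPM in PreCFU-E and 43.4, 45.5 and 50.4 CPM in CFU-E, and its levels did not overlap between the stages (log2 step 2.05). Trim10, a tripartite motif protein gene of maturing erythroblasts, was read at 9.05, 8.07 and 15.2 CPM in PreCFU-E and 38.2, 51.3 and 61.4 CPM in CFU-E (log2 step 2.25). The globin genes Hba-a1 and Hbb-bt were still low, at 4.52, 6.39 and 5.78 CPM in PreCFU-E and 23.04, 35.5 and 45.02 CPM in CFU-E for Hba-a1. Hbb-bt was read at 0.685, 3.03 and 4.88 CPM in PreCFU-E and 8.51, 23.3 and 23.5 CPM in CFU-E, with mouse A the lowest of the 3 at both stages. Their log2 steps were 2.59 and 2.85, but both have near-identical neighbouring copies, so how reads were split among copies is uncertain. Scd1, a desaturase that makes monounsaturated fatty acids, was read at 3.84, 4.82 and 5.27 CPM in PreCFU-E and 19.7, 21.5 and 23.4 CPM in CFU-E (log2 step 2.22). Cacna1e, a calcium channel subunit, was read at 4.66, 1.46 and 8.22 CPM in PreCFU-E and 18.9, 12.2 and 22.9 CPM in CFU-E (log2 step 2.08). The other rises of this set were Sec14l2, a lipid-binding protein gene (log2 step 2.17), Sh3tc2 (2.26), Slc46a3, a lysosomal transporter gene (2.31), Apol8 (2.44) and Rab3il1 (2.47). Without mouse B, Apol8 and Rab3il1 missed the threshold (adjusted p = 0.067 and 0.0631 by edgeR), and Rab3il1 also without mouse C (0.0799).

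Under the same limits on level and separation the largest fall was that of Slamf1, which codes for CD150, one of the sorting antigens, so it describes the gates. It was read at 13.02, 6.39 and 10.8 CPM in PreCFU-E and 0, 0 and 1.17 CPM in CFU-E, with 8 counts in all in CFU-E, and its log2 step was -5.20 (SE 0.97, adjusted p = 8.01e-05 by edgeR, n = 3 mice). Rab37, a small GTPase gene of secretory vesicles, was read at 9.18, 9.42 and 11.4 CPM in PreCFU-E and 0.827, 0 and 0 CPM in CFU-E, so that CFU-E of mice B and C had none (log2 step -5.09). Vim, the intermediate filament vimentin, was read at 47.6, 18.3 and 47.8 CPM in PreCFU-E and 9.69, 0 and 1.17 CPM in CFU-E. CFU-E of mouse A kept the most Vim and no library of the stages overlapped (log2 step -3.78). With the 6 Lepr-Cre libraries fitted alone Vim missed the threshold with the block (adjusted p = 0.111 by edgeR) and without it (0.305). Zbtb16, a transcription factor of early progenitors, was read at 13.8, 10.8 and 17.9 CPM in PreCFU-E and 1.77, 1.05 and 1.61 CPM in CFU-E, a tight group at each stage (log2 step -3.23). Col1a2, a collagen chain, was read at 24.5, 16.6 and 10.7 CPM in PreCFU-E and 0.709, 1.804 and 2.19 CPM in CFU-E (log2 step -3.44). St8sia6, a sialyltransferase gene, was read at 35.5, 19.96 and 33.7 CPM in PreCFU-E and 5.91, 0.451 and 5.41 CPM in CFU-E, lowest in mouse B (log2 step -3.09). Further falls were those of Plxdc2 (log2 step -4.56), Rin3 (-3.69), Parm1 (-3.64), Kdelc2 (-3.55) and Spns3 (-3.33). Of these, Plxdc2 missed the threshold without mouse A or B (adjusted p = 0.346 and 0.136 by edgeR). Rin3 (0.0664 and 0.0937) and Parm1 (0.1 and 0.0835) missed it without mouse B or C.

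**Figure D1:**
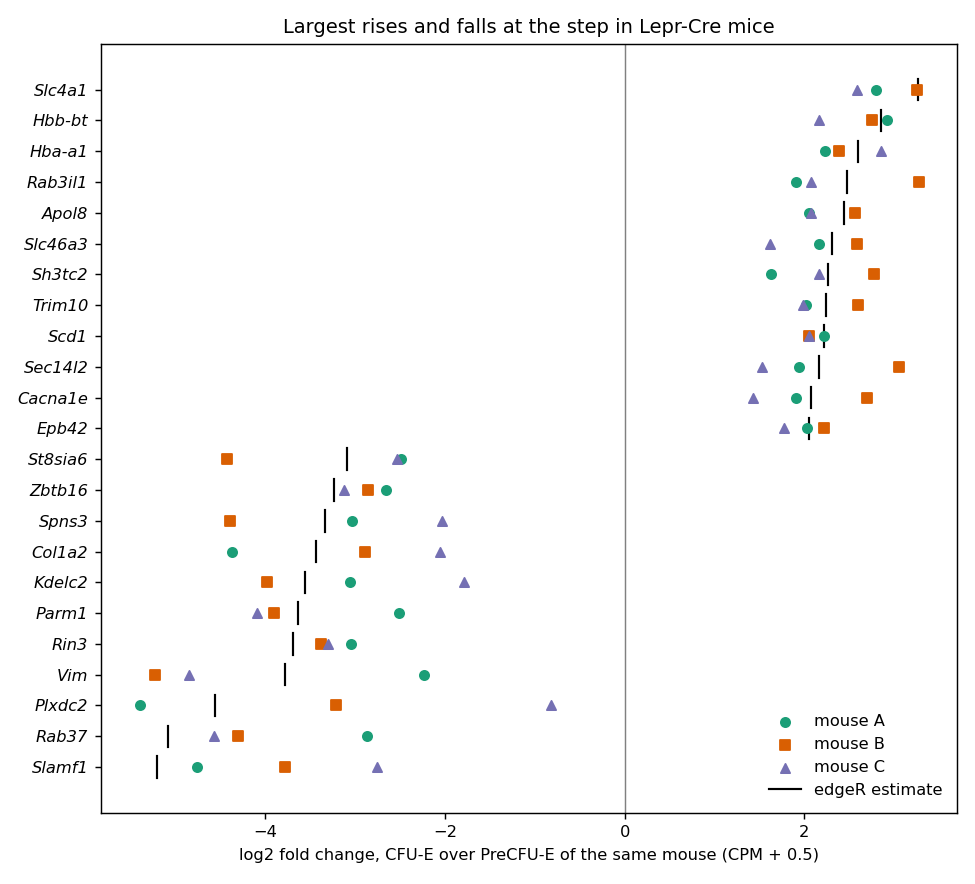
Log2 fold change from PreCFU-E to CFU-E (horizontal axis, on CPM + 0.5) of the 12 largest rises and 11 of the 12 largest falls in Lepr-Cre mice, with 1 point per mouse and a bar at the edgeR estimate. The points of all 3 mice lie on the same side of 0 for each gene, which the choice of genes with separated stages fixed beforehand. The falls, down to -5.20 for Slamf1, reach further than the rises, up to 3.27 for Slc4a1.

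Kit, the SCF receptor gene (ENSMUSG00000005672.12, chr5:75574916-75656722, plus strand), fell at the step. It was read at 490.0, 439 and 380.3 CPM in PreCFU-E and 299.7, 229 and 211 CPM in CFU-E, with every CFU-E library below every PreCFU-E library, and its log2 step was -0.83 (SE 0.08, adjusted p = 1.13e-10 by edgeR). The cells were enriched on the KIT protein, so this is a fall within cells that carry it. Of 45 tested genes of the receptor and its signalling adaptors 3 rose and 12 fell, with a median log2 step of -0.19 against -0.01 over all tested genes. In all 33.3% of the list were called, against 12.3% of all tested genes, of which 5.45% were higher and 6.87% lower. The falls included Vav1, an exchange factor for small GTPases such as RAC (108, 103 and 109 CPM in PreCFU-E and 60.2, 40.9 and 46.2 CPM in CFU-E; log2 step -1.13). Pik3cd, a catalytic subunit of PI3 kinase, was read at 119, 109 and 86.9 CPM in PreCFU-E and 64.1, 49.3 and 37.1 CPM in CFU-E (log2 step -1.08), and Lyn, a SRC family kinase, at 64.4, 48.9 and 70.2 CPM in PreCFU-E and 36.8, 25.9 and 19.6 CPM in CFU-E (log2 step -1.18). The rises included Shc1 and Gab1, named here after their values were seen, and both were small: Gab1, a docking protein gene, had the log2 step 0.48 and Shc1, an adaptor, 0.49. Without mouse B or C 1 of the 3 rises passed, and limma on log2(RPKM + 1) called 0 of them, with 2410 genes at an unadjusted p under 0.05.

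Of 18 tested ERK feedback genes and immediate-early genes 0 rose and 2 fell by edgeR, which is 11.1% called, near the 12.3% of all tested genes. In all, 2624 genes had an unadjusted p under 0.05. Myc, the growth regulator, was read at 553, 649 and 582 CPM in PreCFU-E and 364, 362 and 309 CPM in CFU-E (log2 step -0.79), and its stages did not overlap. Spred2, which restrains RAS signalling, was read at 70.6, 43.95 and 52.4 CPM in PreCFU-E and 42.4, 22.4 and 45.2 CPM in CFU-E (log2 step -0.63). It missed the threshold without the block (adjusted p = 0.0681 by edgeR) and without mouse B (0.0693). The list's median log2 step was 0.15 in Lepr-Cre mice, -0.82 in FL/FL and -0.83 in KO/FL mice, and it is 0.15 also with the 2 members at 0 counts in PreCFU-E set to a floor of 3 counts over the group. Several of its members, Egr1 among them, are low in Lepr-Cre mice, and with 0.5 CPM added the medians in mice A, B and C taken alone were -0.03, -0.05 and 0.06. Those members, chosen for naming after their values were seen, are Dusp6, a phosphatase that inactivates ERK, and Ccnd1, cyclin D1. Dusp6 was read at 0, 0 and 0 CPM in PreCFU-E and 0.827, 0 and 0 CPM in CFU-E in Lepr-Cre mice, where FL/FL mice had 12.4, 14.9 and 11.2 CPM in PreCFU-E and 4.32, 5.398 and 4.36 CPM in CFU-E. Ccnd1 was read at 0, 0 and 0 CPM in PreCFU-E and 0, 0 and 0.877 CPM in CFU-E, against 12.7, 13.02 and 5.25 CPM in PreCFU-E and 12.8, 4.34 and 4.59 CPM in CFU-E in FL/FL mice. The steps of Dusp6 and Ccnd1 were not called different in either contrast, and only their FL/FL levels are given here for comparison. The step of Egr1, an immediate-early transcription factor also chosen after its values were seen, differed between genotypes. Among the 18 members Egr1 was alone in this, against FL/FL and against KO/FL. Egr1 was read at 2.19, 1.46 and 1.16 CPM in PreCFU-E and 2.95, 0.601 and 1.17 CPM in CFU-E in Lepr-Cre mice, a low level at both stages, and at 20.5, 60.4 and 12.8 CPM in PreCFU-E and 1.62, 5.87 and 2.59 CPM in CFU-E in FL/FL mice, a fall in every mouse. The difference of its steps was 2.95 on the log2 scale against FL/FL (adjusted p = 0.0074 by edgeR) and 2.78 against KO/FL (adjusted p = 0.0384).

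Erythropoietin and STAT5 target genes had 3 rises and 2 falls among 15 tested (33.3% called, against 12.3% of all tested genes) and a median log2 step of -0.0035. Epor, the receptor gene, was read at 70.7, 69.96 and 78.9 CPM in PreCFU-E and 99.9, 93.2 and 106 CPM in CFU-E (log2 step 0.45), higher in each CFU-E library than in any PreCFU-E library, though it missed the threshold without mouse A (adjusted p = 0.0692 by edgeR) or C (0.0719). Tfrc, the transferrin receptor gene and an iron uptake gene as well as a STAT5 target, was read at 871, 647 and 624 CPM in PreCFU-E and 1398, 1145 and 1119.7 CPM in CFU-E (log2 step 0.78). Serpina3g, a serine protease inhibitor gene, was read at 10.01, 9.42 and 7.07 CPM in PreCFU-E and 0.591, 0 and 0 CPM in CFU-E and all but vanished (log2 step -5.75). PreCFU-E held 73, 84 and 55 counts of it in Lepr-Cre mice, but 5, 0 and 7 in FL/FL and 3, 18 and 0 in KO/FL mice. The filter on low counts thus kept it for its level in Lepr-Cre PreCFU-E, and its fall describes these mice alone. Serpina3g missed the threshold without mouse B (adjusted p = 0.0522 by edgeR) and in DESeq2's Wald test (0.0744). The other fall was Stat5b (log2 step -0.27), named after its value was seen, and the other rise Gfi1b (0.44). The falls of the list numbered 1 without the block and without mouse A or C, and 0 without mouse B.

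Haem synthesis was the group with the highest share of called members among lists with at least 10 tested genes: 12 of 17 rose and 0 fell (70.6% called, against 12.3% of all tested genes), with a median log2 step of 0.54. Abcb10, a mitochondrial transporter gene, was read at 112, 95.9 and 98.7 CPM in PreCFU-E and 189.9, 177 and 232 CPM in CFU-E (log2 step 0.96, SE 0.10), higher in each CFU-E library than in any PreCFU-E library. Uros, an enzyme of the pathway, was read at 32.5, 20.2 and 34.05 CPM in PreCFU-E and 62.4, 70.3 and 77.03 CPM in CFU-E (log2 step 1.3), and Tmem14c, which carries protoporphyrinogen, at 147, 174 and 182 CPM in PreCFU-E and 223, 267 and 343 CPM in CFU-E (log2 step 0.71). The 12 were 12, 11 and 12 without mouse A, B and C, and 11 without the block. In iron handling 6 of 18 rose and 0 fell (33.3% called, median 0.24), among them the ferritin chains Fth1 (687, 774 and 889 CPM in PreCFU-E and 1005, 1064 and 1236 CPM in CFU-E; log2 step 0.49) and Ftl1 (log2 step 0.48). Slc25a37, which brings iron into mitochondria, was read at 67.98, 49.9 and 60.3 CPM in PreCFU-E and 102, 141 and 93.98 CPM in CFU-E (log2 step 0.91). Of 4 tested globin genes 3 rose, the third being Hbb-bs at 0.548, 0 and 0.771 CPM in PreCFU-E and 2.48, 7.67 and 10.8 CPM in CFU-E, and Hbb-bs missed the threshold without mouse B (adjusted p = 0.154 by edgeR) or C (0.116).

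Red cell membrane and skeleton genes rose in 16 of 33 cases and fell in 3 (57.6% called, against 12.3% of all tested genes), with a median log2 step of 0.39 that was 0.34 in each of the 3 mice taken alone. Sptb, the beta chain of spectrin (ENSMUSG00000021061.15, chr12:76580488-76710547, minus strand), was read at 410.1, 443 and 383 CPM in PreCFU-E and 860.1, 1139 and 843 CPM in CFU-E, so that every CFU-E library lay far above the PreCFU-E libraries (log2 step 1.19, SE 0.10, adjusted p = 3.25e-11 by edgeR). Rhd, a blood group protein gene of the Rh family, was read at 77.9, 87.1 and 108 CPM in PreCFU-E and 159, 154 and 222 CPM in CFU-E (log2 step 0.96), and Cldn13, a claudin gene of mouse erythroid cells, at 36.3, 43.95 and 70.9 CPM in PreCFU-E and 88.04, 118 and 121 CPM in CFU-E (log2 step 1.15). The 3 falls were Sptbn1 (log2 step -1.52), Add3 (-0.75) and Tpm3 (-0.40), a spectrin, an adducin and a tropomyosin that other cell types also use, named after their values were seen. Among 30 late erythroblast genes 16 rose and 2 fell (60% called), with a median log2 step of 0.65. Hemgn, a nuclear protein gene of erythroid cells, was read at 132, 164 and 147 CPM in PreCFU-E and 299, 374 and 358 CPM in CFU-E (log2 step 1.21, SE 0.10), and Ctse, cathepsin E, at 166, 176 and 197 CPM in PreCFU-E and 294, 396 and 381 CPM in CFU-E (log2 step 0.98). The 2 falls were Optn (log2 step -0.68), an autophagy receptor gene, and Car1 (-0.37), a carbonic anhydrase gene, also named after their values were seen.

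**Figure D2:**
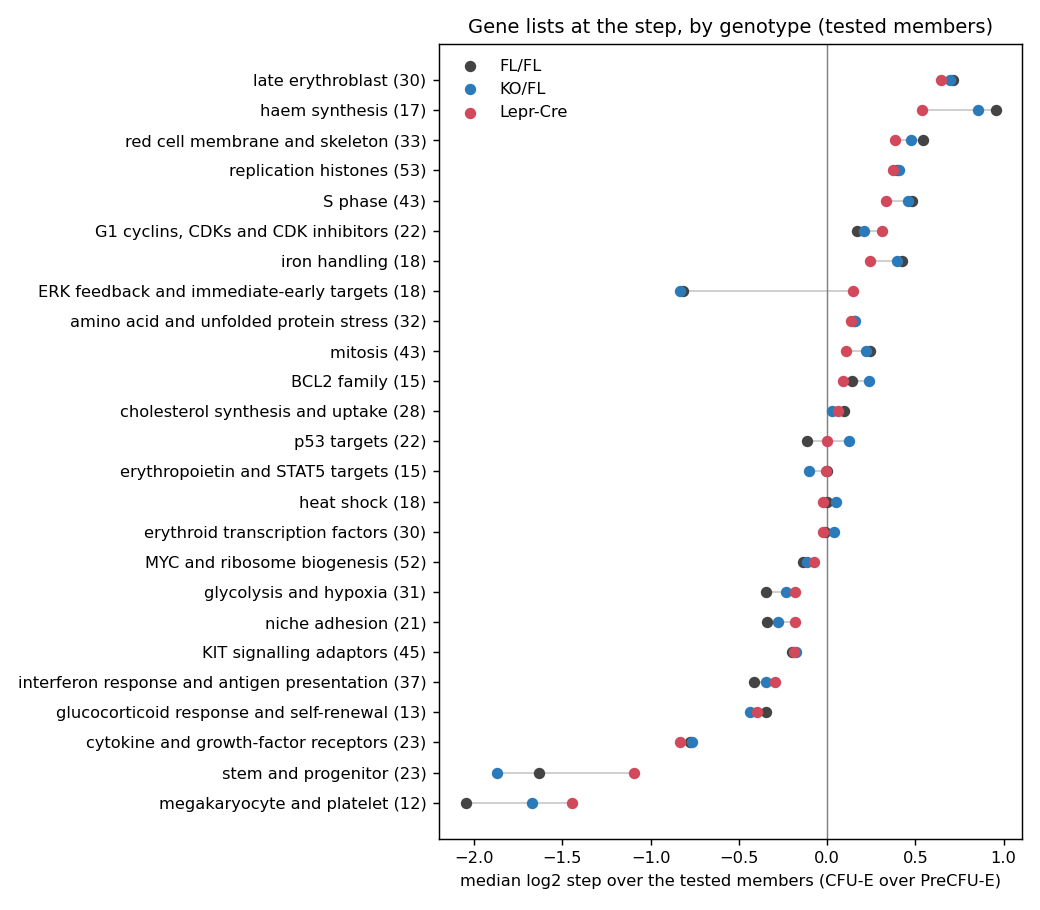
Median log2 step over the tested members of each gene list with at least 10 tested members (number in parentheses), with 1 point per genotype. Stem and progenitor genes lie at -1.09 in Lepr-Cre mice against -1.63 in FL/FL and -1.87 in KO/FL mice, haem synthesis genes at 0.54 against 0.96 and 0.86. ERK feedback and immediate-early genes lie at 0.15 against -0.82 and -0.83. That Lepr-Cre value rests in part on members near 0 counts, and the medians were -0.03, -0.05 and 0.06 in single mice with 0.5 CPM added.

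Of 30 tested erythroid transcription factor genes 6 rose and 6 fell (40% called, against 12.3% of all tested genes), and Gata1, Tal1, Lmo2 and Ldb1 were not among them. Gata1, the central erythroid factor, was read at 191, 238 and 252 CPM in PreCFU-E and 207, 302 and 247 CPM in CFU-E, with overlapping stages (log2 step 0.14, adjusted p = 0.332 by edgeR). Tal1, its partner, was read at 409, 459 and 429.6 CPM in PreCFU-E and 448, 445 and 420.1 CPM in CFU-E (log2 step 0.02, adjusted p = 0.921), and Lmo2 and Ldb1, which bridge the complex, had log2 steps of -0.04 and -0.09. Gata2, which GATA1 replaces, fell from levels of 47.8 to 71.3 CPM to 8.42 to 31.6 CPM, with mouse A the highest at both stages (log2 step -1.86). Myb, a factor of cycling progenitors, was read at 964, 994 and 869.5 CPM in PreCFU-E and 575, 361 and 378 CPM in CFU-E (log2 step -1.14, SE 0.09), and Fli1, an ETS factor of megakaryocytes, at 39.5, 17.7 and 40.6 CPM in PreCFU-E and 8.15, 4.66 and 10.96 CPM in CFU-E (log2 step -2.03). Cbfa2t3 (log2 step -0.54), a corepressor in the TAL1 complex, and Etv6 (-0.67), an ETS repressor, fell as well. Sox6, a factor that silences embryonic globin, rose from 28.5, 39.6 and 36.5 to 64.4, 154 and 166 CPM, less in mouse A than in B and C (log2 step 1.79). Gfi1b, an erythroid repressor, was read at 139, 143 and 165 CPM in PreCFU-E and 183, 187 and 237 CPM in CFU-E (log2 step 0.44), and the E2F factors E2f4 and E2f2 rose by log2 steps of 0.49 and 0.87. Klf1, the activator of adult globin, was read at 235, 267 and 300.1 CPM in PreCFU-E and 305, 332 and 346 CPM in CFU-E (log2 step 0.30) and missed the threshold without mouse A (adjusted p = 0.0932 by edgeR) or B (0.0592). Zbtb7a (log2 step 0.32) missed it without mouse A (0.104), and E2f2 without mouse B (0.0842).

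**Figure D3:**
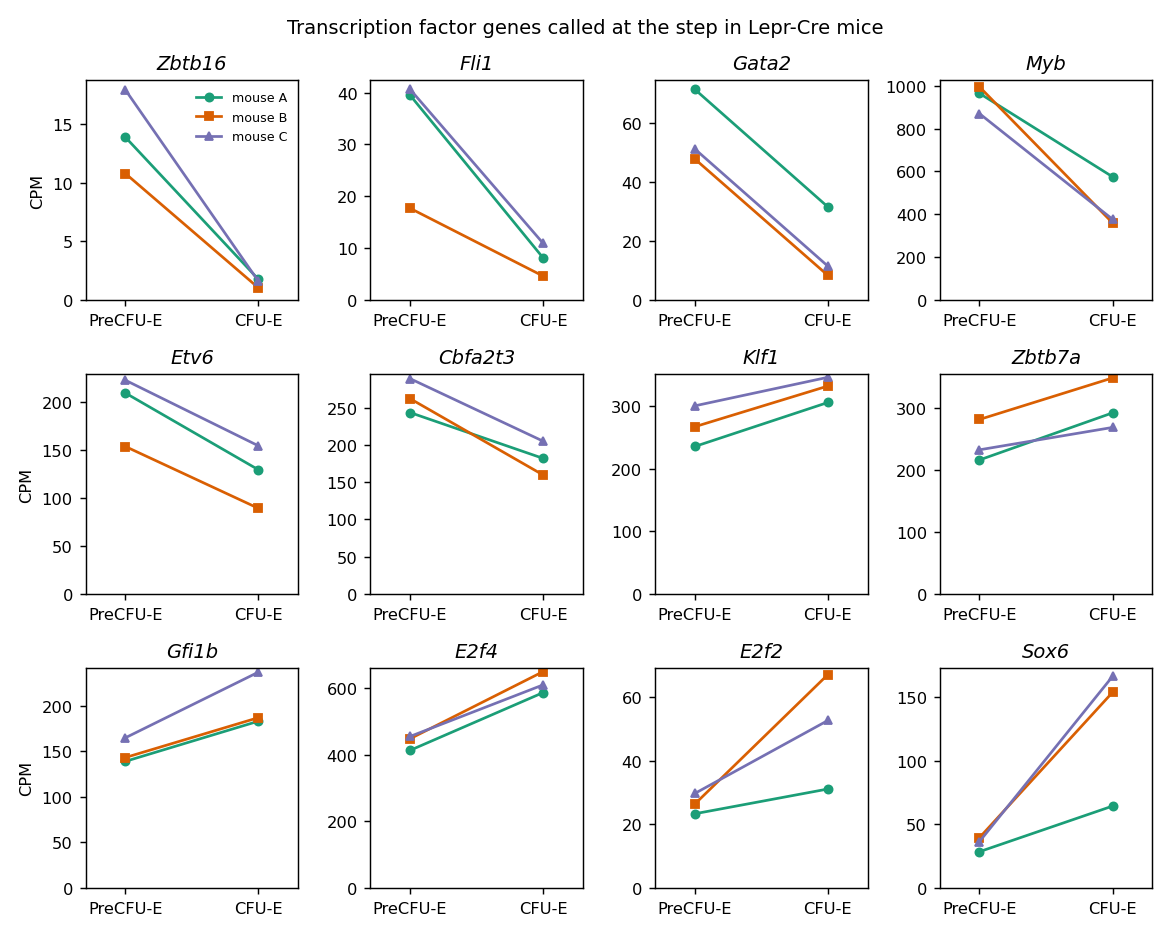
CPM of the 12 transcription factor genes called at the step in Lepr-Cre mice, PreCFU-E at the left and CFU-E at the right of each panel, with 1 line per mouse. Zbtb16, Fli1, Gata2, Myb, Etv6 and Cbfa2t3 fall in all 3 mice and Klf1, Zbtb7a, Gfi1b, E2f4, E2f2 and Sox6 rise in all 3.

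DNA replication genes made many small rises. Of 43 S-phase genes 24 rose and 0 fell (55.8% called), with a median log2 step of 0.33, and the count was 14 without the block. Ccne1, cyclin E1, which drives entry into S phase, was read at 164, 151 and 143 CPM in PreCFU-E and 299.7, 273 and 308 CPM in CFU-E (log2 step 0.94, SE 0.09), with the stages well apart. Rrm2, a subunit of ribonucleotide reductase, was read at 229, 232 and 269.8 CPM in PreCFU-E and 415, 436 and 476 CPM in CFU-E (log2 step 0.86), Prim1, the small primase subunit, had a log2 step of 0.83 and Cdc6, which loads the replicative helicase, one of 0.59. Of 53 replication histone genes 25 rose and 0 fell (47.2% called, median 0.38). Without the block 3 rose and without mouse C 16, and reads of near-identical histone copies cannot be told apart, so single histone genes are uncertain. Hist2h2ac, for example, was read at 265, 296 and 307 CPM in PreCFU-E and 351, 448 and 469 CPM in CFU-E (log2 step 0.54). Of 43 mitosis genes 6 rose and 1 fell (16.3% called, against 12.3% of all tested genes), with a median log2 step of 0.11, and 3 rose without the block. Birc5, survivin, was read at 95.8, 102 and 103 CPM in PreCFU-E and 137, 162 and 179 CPM in CFU-E (log2 step 0.66), while Cenpf, a kinetochore gene, was the fall (log2 step -0.32), lost without the block (adjusted p = 0.209 by edgeR) and without mouse A (0.066). Among 22 G1 regulators 7 rose and 2 fell (40.9% called), the falls being Cdk6 (1319, 1349 and 1193 CPM in PreCFU-E and 918, 858 and 723 CPM in CFU-E; log2 step -0.63) and Ccnd2, both G1 drivers. Without mouse B 3 of the 7 rises passed.

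Stem and progenitor genes had 1 rise and 7 falls among 23 tested (34.8% called, against 12.3% of all tested genes), with a median log2 step of -1.09 (the KO/FL median is -1.81 in place of -1.87 with 2 members at 0 counts set to the floor). Slamf1, which describes the gates, is among the falls. Angpt1, an angiopoietin gene of stem cells, was read at 17.4, 14.2 and 31.4 CPM in PreCFU-E and 6.62, 4.81 and 7.6 CPM in CFU-E (log2 step -1.68), and Zfp36l2, an RNA-binding protein of self-renewing progenitors, at 232, 422 and 346 CPM in PreCFU-E and 184, 182 and 181 CPM in CFU-E (log2 step -0.83). The rise was Eng, the sorting antigen CD105 (log2 step 0.29, adjusted p = 0.0367 by edgeR), lost without the block (0.128), without mouse B (0.0902) or C (0.376). Megakaryocyte and platelet genes had 1 rise and 5 falls among 12 tested (50% called, median -1.45). Itga2b, the gene of the sorting antigen CD41, is among the falls. F2r, a thrombin receptor gene, was read at 59.8, 83.4 and 82.6 CPM in PreCFU-E and 20.9, 24.6 and 10.4 CPM in CFU-E (log2 step -2.04), and Gp5, a platelet glycoprotein gene, at 16.2, 17.8 and 20.2 CPM in PreCFU-E and 1.42, 5.86 and 1.75 CPM in CFU-E (log2 step -2.73). The rise was Vwf, von Willebrand factor (22.8, 23.4 and 25.6 CPM in PreCFU-E and 29.4, 47.05 and 39.6 CPM in CFU-E; log2 step 0.67), lost without mouse B (adjusted p = 0.238 by edgeR) or C (0.0982). Of 5 megakaryocyte marker genes the summed level was 23.6 to 26.1 CPM in PreCFU-E and 29 to 51.3 CPM in CFU-E, with Ppbp at 0 in both, and the part of such cells in these values was not tested.

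In the list of cytokine receptors 8 of 23 genes fell, Kit among them, and 1 rose, Epor (median -0.83), with 5 falls left without the block. In all 39.1% were called, against 12.3% of all tested genes. Ifngr1, an interferon gamma receptor chain, was read at 209.6, 261 and 233 CPM in PreCFU-E and 155, 138 and 143 CPM in CFU-E (log2 step -0.69). Igf1r, the receptor for insulin-like growth factor 1, was read at 255, 265 and 238 CPM in PreCFU-E and 147, 198 and 152 CPM in CFU-E (log2 step -0.62). Niche adhesion genes had 1 rise and 6 falls among 21 (33.3% called, median -0.18). Itga6, the integrin alpha 6 chain, was read at 58.4, 82.4 and 62.8 CPM in PreCFU-E and 38.6, 30.8 and 27.2 CPM in CFU-E (log2 step -1.07). The rise was that of the tetraspanin gene Cd82 at 96.2, 97.3 and 105 CPM in PreCFU-E and 139, 175 and 223 CPM in CFU-E (log2 step 0.82). Interferon response and antigen presentation genes had 1 rise and 6 falls among 37 (18.9% called, median -0.29), with 1 fall left without the block. H2-K1, a class I histocompatibility gene, was read at 427, 735 and 457 CPM in PreCFU-E and 261, 523 and 303 CPM in CFU-E, with mouse B the highest at both stages and overlapping groups, so its fall showed within mice (log2 step -0.60). Without the block its adjusted p was 0.348 by edgeR. Psmb8, an immunoproteasome subunit gene, was read at 75.9, 116 and 94.2 CPM in PreCFU-E and 35.2, 59.8 and 30.8 CPM in CFU-E (log2 step -1.22). Of 13 glucocorticoid response genes 4 fell and 0 rose (30.8% called, median -0.40), Txnip (80.05, 128 and 110.5 CPM in PreCFU-E and 41.2, 68.1 and 54.2 CPM in CFU-E; log2 step -0.96) and the receptor gene Nr3c1 (-0.40) among them. Without the block 2 falls passed. Nr3c1 missed the threshold there (adjusted p = 0.194 by edgeR), without mouse A (0.168) and with limma (0.139 and 0.124).

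Glycolysis genes had 3 rises and 6 falls among 31 tested (29% called, median -0.18). The rises numbered 1 without the block or mouse A, and the falls 3 without mouse B. Hk2, a hexokinase gene, was read at 33.9, 37.2 and 20.6 CPM in PreCFU-E and 13.4, 10.1 and 5.7 CPM in CFU-E (log2 step -1.68). Pfkfb3, which raises glycolytic flux, was read at 29.3, 31.8 and 26.5 CPM in PreCFU-E and 15.5, 3.91 and 7.16 CPM in CFU-E (log2 step -1.87). Pklr, the red cell pyruvate kinase gene, rose (log2 step 0.31), a call lost without mouse C (adjusted p = 0.104 by edgeR), and without mouse C 0 glycolysis genes rose. Genes of the responses to amino acid shortage and unfolded proteins had 6 rises and 0 falls among 32 (18.8% called, median 0.14). Asns, asparagine synthetase, was read at 158, 207 and 211 CPM in PreCFU-E and 269.8, 301 and 267 CPM in CFU-E (log2 step 0.55), and Eif2ak1, the kinase that senses haem, at 136, 167 and 148 CPM in PreCFU-E and 195, 215 and 208 CPM in CFU-E (log2 step 0.46). MYC and ribosome biogenesis genes had 1 rise and 4 falls among 52 (9.62% called, against 12.3% of all tested genes), with 2 falls left without mouse B, 1 without the block and no rise without mouse C. Of 28 cholesterol genes 2 rose and 1 fell, of 18 heat shock genes 2 rose and 0 fell, and of 22 p53 targets 0 rose and 3 fell, which is 10.7%, 11.1% and 13.6% called, near the 12.3% of all tested genes. Heat shock rises were 0 without the block and 1 without mouse B or C, p53 falls 1 without mouse C, and the cholesterol fall was lost without the block and without mouse B or C. Of 15 BCL2 family genes 1 rose (6.67%), Bcl2l11, which codes for the death inducer BIM (22.5, 22.9 and 22.5 CPM in PreCFU-E and 51.3, 45.1 and 34.9 CPM in CFU-E; log2 step 0.94).

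Markers of other cells that a c-Kit enriched sort could hold summed to at most 13 CPM per cell type below, in Lepr-Cre mice. Some genes named above, such as Slamf1, had like levels. Most of these markers did not pass the filter on low counts, and the part of such cells was not tested. The 8 neutrophil and monocyte markers summed to 0.751 to 1.16 CPM in PreCFU-E and 1.62 to 2.52 CPM in CFU-E, with Elane, Csf3r and Ly6c2 at 0 at both stages. The 5 mast cell and basophil markers summed to at most 2.75 CPM, with Mcpt8, Gzmb and Fcer1a at 0, and the 5 macrophage markers to at most 2.79 CPM, with Adgre1 at 0. The 6 lymphocyte markers reached 5.63 CPM in PreCFU-E and 9.85 CPM in CFU-E, with Cd3e at 0. The 4 stromal markers Lepr, Cxcl12, Pdgfra and Col1a1 summed to at most 0.961 CPM in PreCFU-E and to 2.18 to 4.85 CPM in CFU-E. Col1a2, a further stromal gene, moved the other way, as given above. The summed level of 4 endothelial markers went from 9.76 to 13 CPM to 0.588 to 3.55 CPM, with Cdh5 at 0 at both stages. Pecam1, which progenitors and platelets also carry, was read at 9.73, 10.1 and 11.9 CPM in PreCFU-E and 3.19, 0.451 and 2.63 CPM in CFU-E (log2 step -2.48).

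The step was then set beside the same step in the other genotypes, whose mice are different animals. edgeR called 2706 genes (25.2% of those tested) in FL/FL and 2152 (20.1%) in KO/FL mice, against 1322 in Lepr-Cre mice, and 923, 724 and 399 of them changed more than 2-fold. The median size of the log2 step over all tested genes was 0.30 in FL/FL, 0.28 in KO/FL and lowest, at 0.23, in Lepr-Cre mice. Of the Lepr-Cre calls 1020 were also called in the same direction in FL/FL mice, which is 77.2% of the Lepr-Cre calls and 37.7% of the FL/FL calls. In KO/FL mice the number was 968, or 73.2% and 45%. Opposite calls were 4 with FL/FL and 1 with KO/FL. Across genes, which are not independent replicates, Pearson's r of the Lepr-Cre steps was 0.567 with FL/FL and 0.580 with KO/FL, against 0.744 between those 2 genotypes. Genes called in 1 genotype were also read in the others, whose libraries do not set its step but share the filter and the fitted spread behind its calls. For the 1420 genes called higher in FL/FL the median of the log2 steps came to 0.46 (KO/FL) and 0.30 (Lepr-Cre). The 1286 genes called lower in FL/FL had medians of -0.77 and -0.53. Genes called in KO/FL and read in FL/FL and Lepr-Cre gave 0.55 and 0.33 for 1103 rises and -0.91 and -0.60 for 1049 falls. Between 91.3% and 97.2% of these genes kept their sign in Lepr-Cre mice. Whether these medians differ between genotypes was not tested as such, and the tests of single genes follow.

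**Figure D4:**
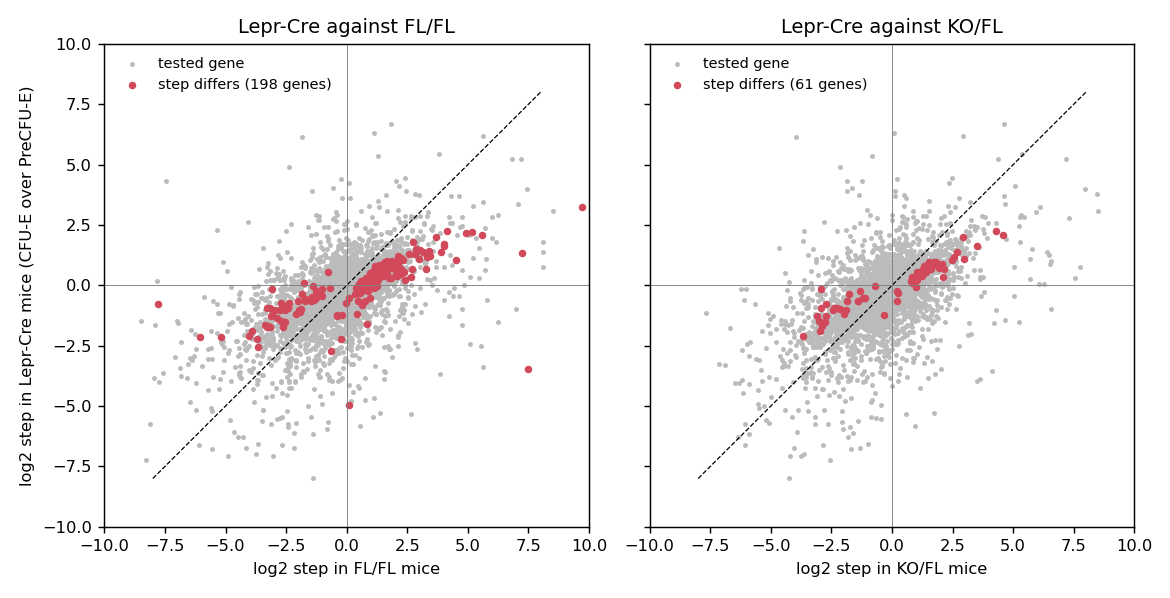
Log2 step of each tested gene in Lepr-Cre mice (vertical axis) against that in FL/FL (left) and KO/FL mice (right), with genes whose steps differed in red and equal steps on the dashed line. Most of the 198 and 61 red genes lie between the dashed line and the horizontal axis, where the Lepr-Cre step is the smaller one.

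The steps themselves differed between Lepr-Cre and FL/FL mice for 198 genes (1.84% of those tested), 53 higher (0.494%) and 145 lower (1.35%) in Lepr-Cre. Against KO/FL mice they differed for 61 genes (0.568%), 25 higher (0.233%) and 36 lower (0.335%). Both contrasts hold the same Lepr-Cre libraries, and 55 genes passed both. Without the block edgeR called 38 genes against FL/FL (39.5% higher, against 26.8% with it) and 0 against KO/FL, where 569 genes had an unadjusted p under 0.05 and 837 with the block. The first count was 115 without Lepr-Cre A and 88 without FL/FL B, and the second 31 and 37 without Lepr-Cre A and C and 28 and 29 without KO/FL B and C. Of the 198 genes 163 changed in the same direction as in FL/FL but less, 112 of them rises and 51 falls, 6 changed more and 29 had steps of opposite sign. Of the 61 genes 56 changed less than in KO/FL, 1 more and 4 with the opposite sign. For 115 of the 198 and 40 of the 61 the gap between genotypes was wider in PreCFU-E than in CFU-E, and for 83 and 21 it was at least as wide in CFU-E.

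Several genes rose less from a PreCFU-E level that was already high in Lepr-Cre mice. Sptb was read at 86.8, 72.5 and 63.7 CPM in PreCFU-E and 788, 878 and 565 CPM in CFU-E in FL/FL mice and 148, 112 and 109.6 CPM in PreCFU-E and 675, 811 and 657 CPM in CFU-E in KO/FL mice, where Lepr-Cre mice had 410.1, 443 and 383 CPM in PreCFU-E and 860.1, 1139 and 843 CPM in CFU-E. The PreCFU-E libraries did not overlap between Lepr-Cre and the other genotypes, and the difference of the log2 steps was -2.12 against FL/FL (SE 0.14, adjusted p = 1.09e-12 by edgeR, n = 3 mice per genotype). Against KO/FL it was -1.36 (SE 0.14, adjusted p = 8.98e-08). Add2, beta adducin of the same skeleton, went from 236, 229 and 223 CPM in PreCFU-E and 548, 560.0 and 519 CPM in CFU-E in FL/FL mice, and from 410.0, 427 and 428 to 497, 624 and 583 CPM in Lepr-Cre mice, ending in the same range (difference -0.82 against FL/FL and -0.66 against KO/FL). Cpd, a carboxypeptidase gene, was read at 289, 281 and 147 CPM in PreCFU-E and 484, 418 and 259.6 CPM in CFU-E in Lepr-Cre mice, above all other libraries at both stages, the highest of which are 40.1 CPM in PreCFU-E and 119 CPM in CFU-E. Its step was smaller by -1.24 against KO/FL and -1.18 against FL/FL on the log2 scale. Lpcat1, which remodels phospholipids, was read at 88.1, 97.9 and 96.5 CPM in PreCFU-E of Lepr-Cre mice against 47.5, 36.98 and 40.3 CPM in FL/FL, with CFU-E levels that overlapped (difference -1.09). Lmna, the nuclear lamin gene, behaved alike, at 188, 177 and 172 against 83.9, 77.1 and 77.6 CPM in PreCFU-E (difference -1.10). Abcg4, a sterol transporter gene, had 37.01, 52.2 and 59.2 CPM in PreCFU-E against 23.5, 16.3 and 21.4 CPM in KO/FL, and CFU-E levels of 80.7, 122 and 107 and 112, 113 and 107 CPM (difference -1.40).

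Btnl10, a butyrophilin-like gene of erythroid cells (ENSMUSG00000020490.16, chr11:58917908-58927158, plus strand), had the smallest p among the named rises of the step. It was read at 37.01, 33.6 and 51.7 CPM in PreCFU-E and 129, 172 and 180.2 CPM in CFU-E in Lepr-Cre mice, with a log2 step of 1.98 (SE 0.14, adjusted p = 5.24e-15 by edgeR). FL/FL mice had 8.896, 8.14 and 10.1 CPM in PreCFU-E and 112, 141 and 104 CPM in CFU-E, a lower start and a like end, so the step was smaller in Lepr-Cre mice by -1.72 (adjusted p = 3.69e-07) and, against KO/FL, by -0.97 (adjusted p = 0.0119). Its promoter is shown as that of the named rise with the smallest p, and it holds matches to the GATA motif. The promoter of Hemgn, also among the named rises with the smallest p, held 0 such matches. The 250 bases before the first listed start of Btnl10, from RefSeq on GRCm38.p6 (chr11:58917658-58917907, plus strand, 5′ to 3′), hold 2 matches to AGATAA on the other strand, in capitals.
Btnl10: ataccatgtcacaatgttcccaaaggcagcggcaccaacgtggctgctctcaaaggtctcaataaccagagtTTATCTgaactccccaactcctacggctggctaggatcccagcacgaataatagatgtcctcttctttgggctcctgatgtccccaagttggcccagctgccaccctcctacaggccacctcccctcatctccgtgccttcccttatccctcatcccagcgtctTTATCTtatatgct

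Other genes rose less and ended lower than in FL/FL mice, some from a higher start. Ctse began at 166, 176 and 197 CPM in Lepr-Cre mice, overlapping 183, 144 and 195 CPM in FL/FL mice, and reached 294, 396 and 381 CPM where FL/FL mice had 582, 629 and 616 CPM and KO/FL mice 483, 521 and 504 CPM. The CFU-E libraries did not overlap, and the difference was -0.84 against FL/FL (adjusted p = 2.26e-05 by edgeR) and -0.76 against KO/FL (adjusted p = 0.000595). Cnn3, the actin-binding calponin 3, was not called in Lepr-Cre mice, at 12.2, 8.63 and 9.51 CPM in PreCFU-E and 15.5, 11.6 and 11.1 CPM in CFU-E (log2 step 0.33, adjusted p = 0.43), while FL/FL mice had 8.48, 7.69 and 8.56 CPM in PreCFU-E and 49.3, 45.5 and 64.7 CPM in CFU-E. Its difference was -2.34 against FL/FL and -1.77 against KO/FL (adjusted p = 8.58e-06 and 0.00431). Sh2d4a, an adaptor gene with an SH2 domain, had a higher start and a lower end, 58.7, 36.9 and 51.7 CPM in PreCFU-E and 86.2, 65.1 and 83.3 CPM in CFU-E in Lepr-Cre against 29.1, 13.6 and 16.7 CPM in PreCFU-E and 151, 124 and 102 CPM in CFU-E in FL/FL mice. Hpn, the membrane protease hepsin, did the same, at 65.4, 48.2 and 72.5 CPM in PreCFU-E and 79.1, 74.3 and 90.9 CPM in CFU-E against 36.1, 23.96 and 28.04 CPM in PreCFU-E and 126, 118 and 123 CPM in CFU-E, and its step in Lepr-Cre mice was not called (adjusted p = 0.0524 by edgeR). Cacna1e began at 4.66, 1.46 and 8.22 CPM in Lepr-Cre against 1.66, 0.7396 and 0.552 CPM in FL/FL mice, a higher mean with overlapping libraries. It ended at 18.9, 12.2 and 22.9 CPM in Lepr-Cre, 54.3, 64.7 and 27.9 CPM in FL/FL and 29.01, 44.99 and 12.1 CPM in KO/FL mice, where the Lepr-Cre and KO/FL libraries overlapped (difference -3.50 against FL/FL).

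Falls were shallower for Apoe, an apolipoprotein gene (ENSMUSG00000002985.16, chr7:19696109-19699188, minus strand). Apoe was read at 77.03, 102 and 103 CPM in PreCFU-E and 21.9, 24.05 and 19 CPM in CFU-E in Lepr-Cre mice, 306, 407 and 366 CPM in PreCFU-E and 19.97, 19.7 and 27.3 CPM in CFU-E in FL/FL mice and 211, 373 and 366 CPM in PreCFU-E and 17.6, 29.96 and 25.8 CPM in CFU-E in KO/FL mice. PreCFU-E of Lepr-Cre mice lay below those of both other genotypes and CFU-E of all 3 genotypes shared a range. The log2 step was -2.11 in Lepr-Cre mice, and its difference was 1.91 against FL/FL (SE 0.17, adjusted p = 6.78e-11 by edgeR) and 1.58 against KO/FL (SE 0.17, adjusted p = 5.24e-08). Apoe is also a macrophage gene. In PreCFU-E the 5 macrophage markers summed to 0.858 to 2.05 CPM in Lepr-Cre, 0.71 to 0.959 CPM in FL/FL and 0.565 to 4.28 CPM in KO/FL mice. The part of such cells in the Apoe levels was not tested. The Apoe promoter, shown as that of the named fall with the smallest p, is chr7:19699189-19699438 on the minus strand of GRCm38.p6 (RefSeq, 5′ to 3′). The capitals mark 5 matches to the CACC box of KLF1 (CCNCNCCC), some of which overlap, and 1 to the ETS motif GAGGAA at the start, counted on both strands.
Apoe: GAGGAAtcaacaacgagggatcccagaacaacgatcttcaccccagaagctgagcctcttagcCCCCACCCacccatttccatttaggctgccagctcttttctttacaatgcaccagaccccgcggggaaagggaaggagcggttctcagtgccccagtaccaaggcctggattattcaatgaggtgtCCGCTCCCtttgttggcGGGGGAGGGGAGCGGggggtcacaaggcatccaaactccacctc

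Ccnd2, cyclin D2, began at a like level and stayed higher. It was read at 345, 416 and 357 CPM in PreCFU-E and 298, 242 and 238 CPM in CFU-E in Lepr-Cre mice against 302, 421 and 316 CPM in PreCFU-E and 123, 136 and 109.7 CPM in CFU-E in FL/FL and 401, 372 and 227 CPM in PreCFU-E and 196, 142 and 109 CPM in CFU-E in KO/FL mice, and each Lepr-Cre CFU-E library lay above all those of other genotypes. The difference was 0.96 against FL/FL (adjusted p = 4.95e-06 by edgeR), not called without the block (adjusted p = 0.34), and 0.63 against KO/FL (adjusted p = 0.00896). Arpc1b, a subunit of the ARP2/3 complex, was read at 57.4, 55.4 and 47.8 CPM in PreCFU-E and 37.1, 22.7 and 24.8 CPM in CFU-E in Lepr-Cre mice and 78.8, 78.3 and 79.8 CPM in PreCFU-E and 10.4, 9.74 and 18.8 CPM in CFU-E in FL/FL mice, with Lepr-Cre libraries lower at the start and higher at the end (difference 1.69 and, against KO/FL, 1.32). Dock2, an activator of RAC, was read at 169, 136 and 127 CPM in PreCFU-E and 59.4, 32.8 and 42.4 CPM in CFU-E and 259, 246 and 234 CPM in PreCFU-E and 30.4, 20.4 and 27.2 CPM in CFU-E in these genotypes (difference 1.56 and, against KO/FL, 1.18). Coro1a, coronin 1A, was read at 6.17, 6.39 and 5.397 CPM in PreCFU-E and 6.5, 2.71 and 2.34 CPM in CFU-E in Lepr-Cre mice, while CFU-E of FL/FL mice held 1 count in all, so the size of its difference depends on how edgeR treats near-zero counts. Mef2c, a transcription factor of progenitors and megakaryocytes, ended at 31.2, 24.8 and 23.4 CPM in Lepr-Cre against 8.28, 6.57 and 4.12 CPM in FL/FL mice (difference 1.87). Syk, a tyrosine kinase gene, and Ass1, argininosuccinate synthase, ended at 41.1, 46.4 and 24.8 and 38.3, 32.8 and 28.4 CPM in Lepr-Cre against 22.3, 14.6 and 23.1 and 14.2, 17.9 and 9.32 CPM in KO/FL mice (differences 1.16 and 1.28). S100a10 (1.57), Arhgef2 (0.77) and Igfbp4 (1.99) followed against KO/FL, and Wdfy4 (2.00) and Abca2 (1.35) against FL/FL.

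**Figure D5:**
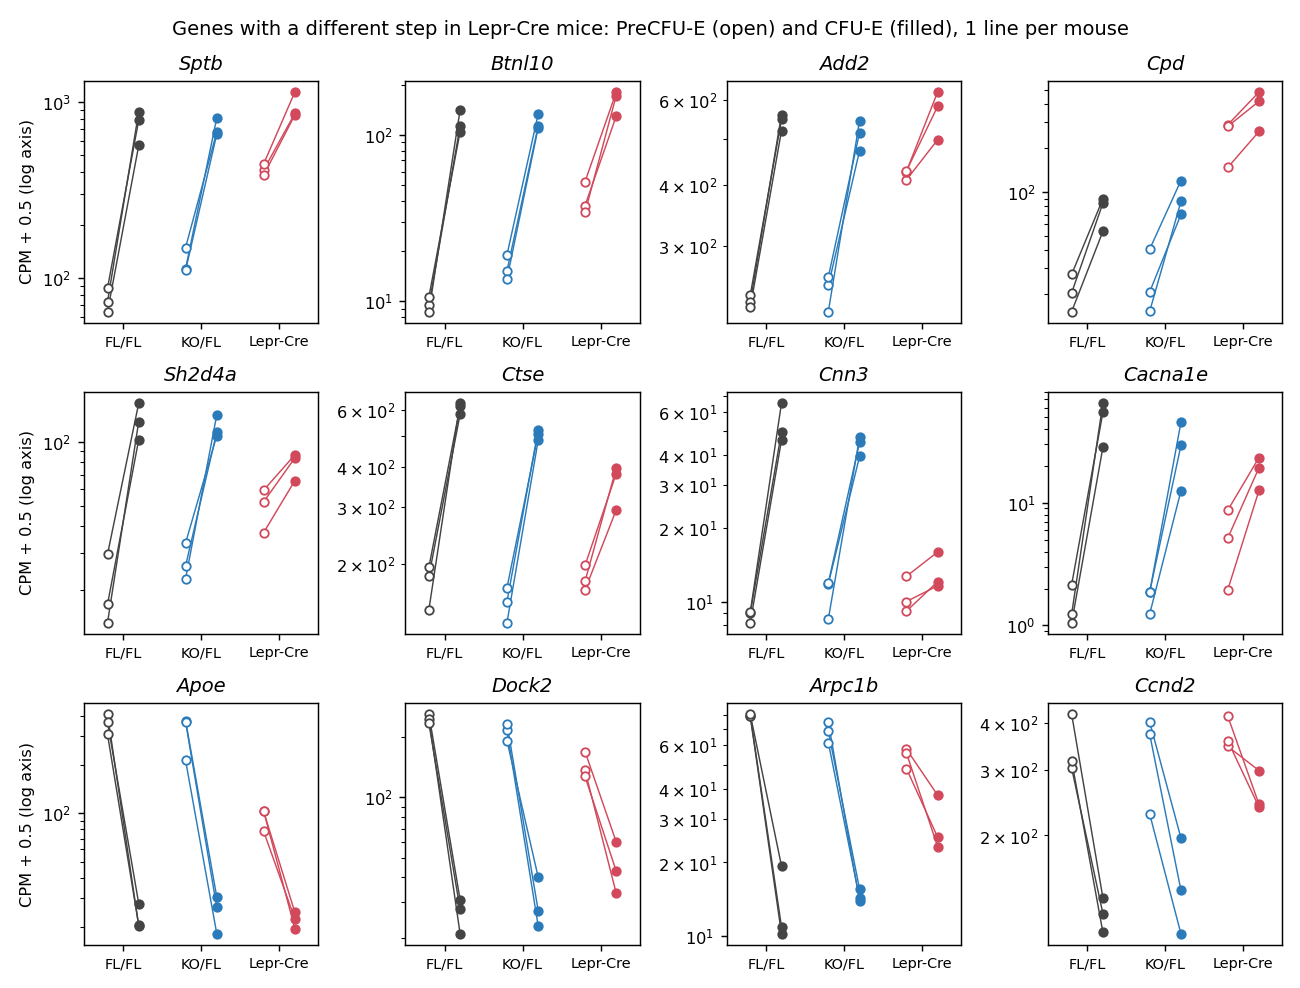
CPM + 0.5 on a log axis of 12 genes whose step differed, PreCFU-E as open and CFU-E as filled circles joined within each mouse, for the 3 genotypes. Sptb, Btnl10, Add2 and Cpd start higher in Lepr-Cre mice, Apoe starts lower, and Ctse, Cnn3 and Ccnd2 differ at the CFU-E end.

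A small set moved the other way. Of the 29 genes with opposite signs against FL/FL, 8 were called in Lepr-Cre mice, which are Ephx2, Eps8l1, Fabp5, Magi1, Myh10, Ptger4, Tjp1 and Wdfy3, all but Myh10 named after their values were seen. Only 4 of all tested genes were called in both genotypes with opposite directions, so not all 8 had a called step in FL/FL mice. Myh10, nonmuscle myosin IIB, fell in Lepr-Cre mice, from 932, 1187 and 899 to 821, 915 and 709 CPM (log2 step -0.30), and rose in FL/FL mice, from 612, 756 and 539 to 886, 1067 and 755 CPM (difference -0.81, adjusted p = 1.43e-06 by edgeR). Its Lepr-Cre stages overlapped, and the fall missed the threshold without mouse B (adjusted p = 0.0806 by edgeR) or C (0.0777) and without the block (0.288). Fabp5, a fatty acid binding protein gene, rose from 95.8, 128 and 93.2 to 139, 189 and 133 CPM in Lepr-Cre mice and fell from 28.8, 35.2 and 21.3 to 16.7, 24.5 and 10.5 CPM in FL/FL mice (difference 1.3, adjusted p = 0.00019). Tjp1, the junction scaffold ZO-1, fell from 68.8, 36.7 and 47.2 to 41.95, 16.5 and 41.8 CPM in Lepr-Cre mice and rose from 73.3, 50.3 and 118 to 107, 78.4 and 144 CPM in FL/FL mice (difference -1.14). The stages of Tjp1 overlapped in both genotypes. Vps13c, a lipid transfer protein gene, was not called in Lepr-Cre mice (log2 step -0.22) and rose in FL/FL mice (difference -0.88). Among the 6 genes with a larger step than in FL/FL was Gp5, at 25.7, 33.7 and 25.7 CPM in PreCFU-E and 16.6, 21.9 and 16.5 CPM in CFU-E in FL/FL mice against 1.42, 5.86 and 1.75 CPM in CFU-E of Lepr-Cre mice (difference -2.10, adjusted p = 0.00197 by edgeR). The others were Cpq, Dapp1, Ltbp1, Plxna1 and the gene model AC162528.2, all falls in Lepr-Cre mice and named after their values were seen.

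Membrane skeleton genes were the list with the most differing steps by count, which a longer list can raise. Of its 33 tested genes 8 had lower steps against FL/FL, where 1.35% of all tested genes did. Against KO/FL 4 had lower steps, where 0.335% of all tested genes did, and 0 were higher in either contrast. Beside Sptb and Add2 the lower steps against FL/FL included Rhag (-0.80), Ank1 (-0.53), Slc4a1, Rhd (-0.63) and Cldn13 (-1.10), that is, ankyrin and surface proteins of the red cell. Rhag and Ank1 were named after their values were seen, as were Cpox and Abcb6 below. In haem synthesis 3 of 17 steps were lower against FL/FL, those of Cpox (-0.53), Abcb10 (-0.70) and Abcb6 (-0.74), and in the late erythroblast list 4 of 30, among them Trim10 (-1.91). For Kit no difference was detected: its log2 step was -0.97 in FL/FL and -0.93 in KO/FL mice, and its difference was 0.14 (SE 0.12, adjusted p = 0.737 by edgeR) and 0.10 (SE 0.12, adjusted p = 0.923).

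Promoters of the changed genes were searched for motifs of the factors above. RefSeq start sites gave 250 bases upstream for 8141 of the tested genes, 424 called higher and 559 called lower at the step. The GATA motif AGATAA was in 9.2% of promoters of higher genes (39), 6.6% of lower genes (37), 5.7% of tested genes and 10.3% of all 27025 promoters. The CACC box CCNCNCCC was in 67.7%, 73.2%, 64.2% and 45.6% of the same sets, and the ETS motif GAGGAA in 18.2%, 25.8%, 21.8% and 23.1%. Both strands were searched and matches of different motifs may overlap. These shares describe letters in a window and were not tested.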

How the data were processed

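RNA of sorted PreCFU-E and CFU-E from 9 mice, 3 per genotype, was sequenced from a stranded total RNA kit, per the labels' protocols. A heading there speaks of nuclear extraction, so whether the levels are those of nuclei or of whole cells is not settled by the labels; they were read as whole-cell RNA. STAR 2.5.2b, HTSeq (version not given) and mm10 are named in the submitters' processing notes; for the annotation and the strand setting nothing is stated in the sources used here, so reads of overlapping or antisense genes may not be separated. The authors deposited whole-number counts, not normalized, for 21967 genes in 18 libraries, of which 5325 genes had no count, and an RPKM table, which the authors scaled to library totals and gene length. Library totals ran from 3541066 to 9389122 counts, and a gene at 0 is compatible with up to 3 counts. Groups came from the labels.

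Counts were fitted with edgeR 4.0.16 (R 4.3.3; quasi-likelihood, robust, TMM scaling, filterByExpr with a minimum count of 10 and a minimum total of 15) over all 18 libraries, with the mouse as a block and 1 step coefficient per genotype. Step differences are contrasts of these coefficients. Adjusted p-values are Benjamini-Hochberg over 10732 genes, with a threshold of 0.05. Each SE is the size of the log2 value divided by the square root of the test's F statistic. It is no spread over the 3 mice of 1 genotype alone. The labels give both libraries of a mouse the same mouse identity, so pairing is by design, and deviations of the same mouse correlated at 0.118 to 0.189 in Lepr-Cre mice. The p-values rest on how the step varies between mice once the level of each mouse is removed. That spread was estimated together over the 9 mice of the 3 genotypes. CPM used TMM-scaled totals, and the single-mouse steps of the plot added 0.5 CPM. Named genes were the 12 largest rises and falls with a mean of at least 5 CPM and separated groups, up to 4 called members per list by p, and, for each step difference, the 8 genes with the lowest p in either direction. A few named genes are not reported here. The members and lists were chosen with earlier results of these data known. Positions of 19609 genes came from GENCODE M21 (GRCm38) by their symbols. Alternatives were DESeq2 1.42.0 size factors and Wald test, no filter, no block, limma 3.58.1 on log2(RPKM + 1) and log2(RPKM + 0.1), fewer libraries, and each mouse left out. The edgeR code was tested on simulated data.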

Additional observations from a re-analysis of the deposited data

Results flagged for a closer look

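The genes given here were picked out because their step from PreCFU-E to CFU-E differed between Lepr-Cre mice and another genotype in a test of the difference itself, by edgeR's quasi-likelihood test over 3 mice per genotype. Against FL/FL mice, log2 steps lower in Lepr-Cre mice were those of Cacna1e -3.50 (SE 0.49, adjusted p = 4.95e-06), Sptb -2.12 (SE 0.14, adjusted p = 1.09e-12), Sh2d4a -2.01 (SE 0.22, adjusted p = 1.75e-08) and Btnl10 -1.72 (SE 0.21, adjusted p = 3.69e-07) by edgeR. The log2 differences were Hpn -1.66 (SE 0.21, adjusted p = 3.69e-07), Lmna -1.10 (SE 0.14, adjusted p = 1.43e-06), Vps13c -0.88 (SE 0.12, adjusted p = 1.43e-06) and Myh10 -0.81 (SE 0.11, adjusted p = 1.43e-06) for the others by edgeR. Steps higher in Lepr-Cre mice, each a smaller fall, were those of Apoe 1.91 (SE 0.17, adjusted p = 6.78e-11), Wdfy4 2.00 (SE 0.27, adjusted p = 2.42e-06), Abca2 1.35 (SE 0.19, adjusted p = 3.02e-06) and Ccnd2 0.96 (SE 0.13, adjusted p = 4.95e-06) by edgeR. The same held for Mef2c 1.87 (SE 0.29, adjusted p = 2.98e-05), Arpc1b 1.69 (SE 0.27, adjusted p = 3.6e-05) and Igfbp4 2.22 (SE 0.35, adjusted p = 3.8e-05) by edgeR. Coro1a had a fitted difference of 7.03 (SE 1.09, adjusted p = 2.97e-05 by edgeR), whose size depends on the near-zero counts of FL/FL CFU-E. Without the block 11 of these 16 genes passed, and those that did not were Cacna1e, Ccnd2, Igfbp4, Vps13c and Myh10. With limma on log2(RPKM + 1) and log2(RPKM + 0.1) 6 and 5 of the 16 passed, and Sh2d4a, Hpn, Btnl10, Lmna, Vps13c, Cacna1e, Wdfy4, Ccnd2 and Mef2c missed the threshold in both. Coro1a missed it in the former, and Arpc1b and Igfbp4 in the latter.

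Against KO/FL mice, log2 steps lower in Lepr-Cre mice were those of Cnn3 -1.77 (SE 0.34, adjusted p = 0.00431), Sh2d4a -1.45 (SE 0.22, adjusted p = 8.01e-05), Abcg4 -1.40 (SE 0.22, adjusted p = 0.00024) and Sptb -1.36 (SE 0.14, adjusted p = 8.98e-08) by edgeR. The log2 differences were Cpd -1.24 (SE 0.17, adjusted p = 1.71e-05), Lpcat1 -0.85 (SE 0.16, adjusted p = 0.00396), Ctse -0.76 (SE 0.13, adjusted p = 0.000595) and Add2 -0.66 (SE 0.12, adjusted p = 0.00122) for the others by edgeR. Higher steps, each a smaller fall, were those of Igfbp4 1.99 (SE 0.35, adjusted p = 0.00122), Apoe 1.58 (SE 0.17, adjusted p = 5.24e-08), S100a10 1.57 (SE 0.32, adjusted p = 0.00655) and Arpc1b 1.32 (SE 0.26, adjusted p = 0.00553) by edgeR. The log2 differences were Ass1 1.28 (SE 0.24, adjusted p = 0.00309), Dock2 1.18 (SE 0.21, adjusted p = 0.00553), Syk 1.16 (SE 0.24, adjusted p = 0.00709) and Arhgef2 0.77 (SE 0.15, adjusted p = 0.0054) for the others by edgeR. Without the block, and in both limma fits, 0 of these 16 genes passed. Without KO/FL B the genes Syk, Lpcat1 and Cnn3 missed the threshold, without KO/FL C Ass1 and S100a10, without Lepr-Cre A Arpc1b, Arhgef2 and S100a10, and without Lepr-Cre C Dock2. Both contrasts share the Lepr-Cre libraries, so they are not independent.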

How the results depend on the processing

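Leaving out the mouse block, fitting limma to log RPKM values or leaving out a mouse moved the counts of called genes most. For the step in Lepr-Cre mice, edgeR's 1322 genes became 778 without the replicate block, 580 in the 6 Lepr-Cre libraries without it, and 781 and 829 with limma on log2(RPKM + 1) and log2(RPKM + 0.1), where 40.5% and 37.5% were higher against 44.3%. With each mouse left out in turn they ranged from 799 to 1356. For the difference from FL/FL, 198 became 38 without the block, 14 and 9 with limma, and 88 to 236 with a mouse left out, and higher differences made up 39.5%, 57.1% and 55.6% of these calls against 26.8%. For the difference from KO/FL, 61 became 97 without the filter on low counts and 0 without the block (569 genes at an unadjusted p under 0.05), 0 in both limma fits (860 and 827 so), and 28 to 65 with a mouse left out. DESeq2's Wald test called 1447, 210 and 70 genes. No named gene with a call reversed its sign, but in both limma fits most differences from FL/FL were higher in Lepr-Cre mice where most were lower in edgeR. Of 134 named genes called at the step, 108 were still called without the block, 125, 112 and 115 without mouse A, B and C of Lepr-Cre, and 113 and 114 with limma. The median step of all tested genes moved by less than 0.1 under every setting run. The cause of these changes was not tested. With 3 mice per genotype and low counts for genes such as Coro1a, small differences may be missed, and a gene not called is not shown to be unchanged.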
